A study of Mus musculus with 11 samples.

Results

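The 2 pluripotent libraries of a mouse reprogramming series, 1 of an induced pluripotent stem cell (iPSC) line and 1 of an embryonic stem cell (ESC) line, were compared with the library of the mouse embryonic fibroblasts (MEF) from which reprogramming started. These are 3 of the 11 small RNA libraries in the series, and the other 8 hold the days between. Of 3859 small RNA genes in the deposited table, 1419 had a mean of at least 10 FPKM (fragments per length of the gene and total of mapped fragments) over the 11 libraries. They were 895 microRNA (miRNA) genes, 429 small nucleolar RNA (snoRNA) genes and 95 others, and 1410 had a usable value in all 3 libraries. The MEF carry the Mbd3f/- genotype, in which Mbd3, which encodes part of the NuRD repressor complex, has a floxed and a null copy, and a doxycycline-inducible cassette of Oct4, Klf4, Sox2 and Myc (OKSM). They had received no doxycycline and were not labelled as plated on feeders. The iPSC library came from an established Mbd3f/- line of 3 passages or more. The ESC library is also labelled Mbd3f/-, but its column is named V6.5, and the design text allows either a Mbd3f/- or a wild-type V6.5 ESC line. Both lines grew for 3 to 4 days in N2B27 medium with 2i/LIF (the cytokine LIF plus inhibitors of the kinases GSK3 and MEK) on irradiated human foreskin fibroblasts. Feeder cells, medium and the pluripotent state therefore differed from MEF together and cannot be told apart, and reads of miRNAs with the same sequence in human and mouse can come from either.

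A miRNA is a short RNA cut from a hairpin that guides Argonaute proteins to messenger RNAs, and the bases called the seed near its 5' end do most of the pairing. Genes with the same seed can lie in different clusters, and genes of 1 cluster are usually cut from 1 transcript. In mouse pluripotent cells the miR-290 and miR-302 clusters are the best known, and they speed the cell cycle and aid reprogramming. Fibroblasts are known for miR-21, miR-143, miR-145, miR-199 and miR-214, and let-7 is the classic miRNA of differentiated cells, held back in stem cells by the protein LIN28. snoRNAs guide chemical marks on ribosomal RNA and are mostly cut from introns of genes for ribosomal and nucleolar proteins.

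The mature sequences behind the main groups are printed first, because the groups are families by seed. They are from RefSeq (GRCm38.p6), 5' to 3', with the seed (bases 2 to 8) in capitals. These miRNAs of the 2 pluripotency clusters share the letters AAGUGC, and the first 5 share the whole seed AAGUGCU:
mmu-miR-291a-3p: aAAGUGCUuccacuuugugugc
mmu-miR-294-3p: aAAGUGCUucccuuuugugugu
mmu-miR-295-3p: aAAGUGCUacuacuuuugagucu
mmu-miR-302b-3p: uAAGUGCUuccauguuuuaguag
mmu-miR-302d-3p: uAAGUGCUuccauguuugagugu
mmu-miR-291b-3p: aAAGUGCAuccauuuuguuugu
mmu-miR-290a-3p: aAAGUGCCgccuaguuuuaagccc

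The miR-17 seed AAAGUGC holds the same letters shifted by 1 base. It is shown from 3 clusters, because their genes stood at different distances from MEF although the seed is the same:
mmu-miR-106a-5p: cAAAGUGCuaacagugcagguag
mmu-miR-20b-5p: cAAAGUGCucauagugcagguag
mmu-miR-93-5p: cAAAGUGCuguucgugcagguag
mmu-miR-17-5p: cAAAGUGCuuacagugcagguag
mmu-miR-20a-5p: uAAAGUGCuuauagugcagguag

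The miR-200 family has 2 seeds, printed as 2 pairs, and the miR-183 cluster has a seed for each member shown. They are shown because all with a value were higher in both lines:
mmu-miR-200b-3p: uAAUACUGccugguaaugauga
mmu-miR-429-3p: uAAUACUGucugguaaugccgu
mmu-miR-200a-3p: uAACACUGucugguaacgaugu
mmu-miR-141-3p: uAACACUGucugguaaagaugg
mmu-miR-183-5p: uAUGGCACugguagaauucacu
mmu-miR-96-5p: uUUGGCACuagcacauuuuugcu

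On the X chromosome, a run of fast-evolving genes known from the testis gives miRNAs whose seeds differ from those above. They are shown because their list was far higher in iPSC than in ESC:
mmu-miR-743b-3p: gAAAGACAucaugcugaauaga
mmu-miR-881-3p: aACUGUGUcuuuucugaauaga
mmu-miR-465a-3p: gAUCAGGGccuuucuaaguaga
mmu-miR-470-5p: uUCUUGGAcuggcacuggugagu

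Among the families that were lower in the lines, let-7, miR-125 with miR-351, and miR-99 with miR-100 each share a seed. miR-199 and miR-10b are printed beside them as abundant MEF miRNAs with seeds of their own:
mmu-let-7i-5p: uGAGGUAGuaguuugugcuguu
mmu-let-7g-5p: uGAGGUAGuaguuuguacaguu
mmu-miR-98-5p: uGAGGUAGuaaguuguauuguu
mmu-miR-125b-5p: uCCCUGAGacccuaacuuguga
mmu-miR-351-5p: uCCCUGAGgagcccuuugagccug
mmu-miR-199a-3p: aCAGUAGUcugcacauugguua
mmu-miR-99b-5p: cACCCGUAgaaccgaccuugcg
mmu-miR-100-5p: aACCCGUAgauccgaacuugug
mmu-miR-10b-5p: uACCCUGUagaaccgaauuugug

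In 2 pairs, genes with 1 seed lay on opposite sides of MEF, so the seed alone does not sort genes by direction:
mmu-miR-181a-5p: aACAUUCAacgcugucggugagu
mmu-miR-181c-5p: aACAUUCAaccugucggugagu
mmu-miR-204-5p: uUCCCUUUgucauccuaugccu
mmu-miR-211-5p: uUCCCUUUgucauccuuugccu

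Both lines were at least 4-fold higher than MEF in 235 of 1410 transcripts (16.7%) and at least 4-fold lower in 221 (15.7%). Differences are on the scale log2(FPKM + 10) after the libraries were rescaled by median ratios, and a transcript counted when both lines passed 4-fold in the same direction. With 1 library per stage there is no replicate error and no p-value, and the distance between the 2 lines is the only measure of spread. The median absolute difference was 0.68 between iPSC and ESC and 1.71 between the mean of the lines and MEF. The smaller of a called transcript's 2 differences from MEF was larger than the gap between the lines in 230 of the 235 higher and 207 of the 221 lower transcripts. The rule for calls favours this outcome, because it asks for at least 4-fold in each line, so it is no separate support for the calls. By any amount, both lines lay above MEF in 580 transcripts (41.1%) and below it in 503 (35.7%). Just inside the threshold on the higher side were Mir466l at 2.00 and Mir181c at 2.01, and just outside it Mir669a-10 at 1.997 and Snord33 at 1.99. On the lower side Mir376b stood inside at -2.02 and Mir370 outside at -1.99.

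The low FPKM values step by what a single read is worth, and the reads worked out from these steps summed to 5660000 in MEF, 7960000 in iPSC and 9130000 in ESC. At a length of 80 nt a single read corresponded to 49.8 FPKM in MEF, 38.9 in iPSC and 32.4 in ESC. A count of 0 allows up to 3 reads, so a fold against 0 is printed as a lower bound from 3 reads in that library, and a fold against 1 to 3 reads carries a 95% interval for counting error only. MEF was listed at 0 in 120 of the 235 higher transcripts, and both lines were in 42 of the 221 lower ones. With at least 20 reads in each line, or in MEF, the counts were 123 higher and 150 lower.

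The MEF library stood apart from the other 10 in its content. snoRNAs took 1.31% of its reads against 3.93% to 10.1% in the other libraries, with 10.1% in iPSC and 9.24% in ESC, while miRNAs took 98.4%, 89.5% and 90.4% in MEF, iPSC and ESC. Its scaling factor was 0.53 against 1.47 and 1.36 in the lines, so on FPKM as deposited the differences lay higher, by a median of 1.40 in iPSC and 1.27 in ESC. A low factor was not particular to MEF, as day 7 had 0.58 with 6.99% of its reads in snoRNAs. Of the calls, 154 of the 235 higher and 108 of the 221 lower were made under all 6 scalings tried. No called transcript changed sign under any of them. The 4-fold threshold nearly fixed this in advance, because the scalings moved the differences by a median of at most 1.40 on the log2 scale. Read against the first day of induction in place of MEF, 118 transcripts were higher and 137 lower. What set this library apart was not tested.

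**Figure D1:**
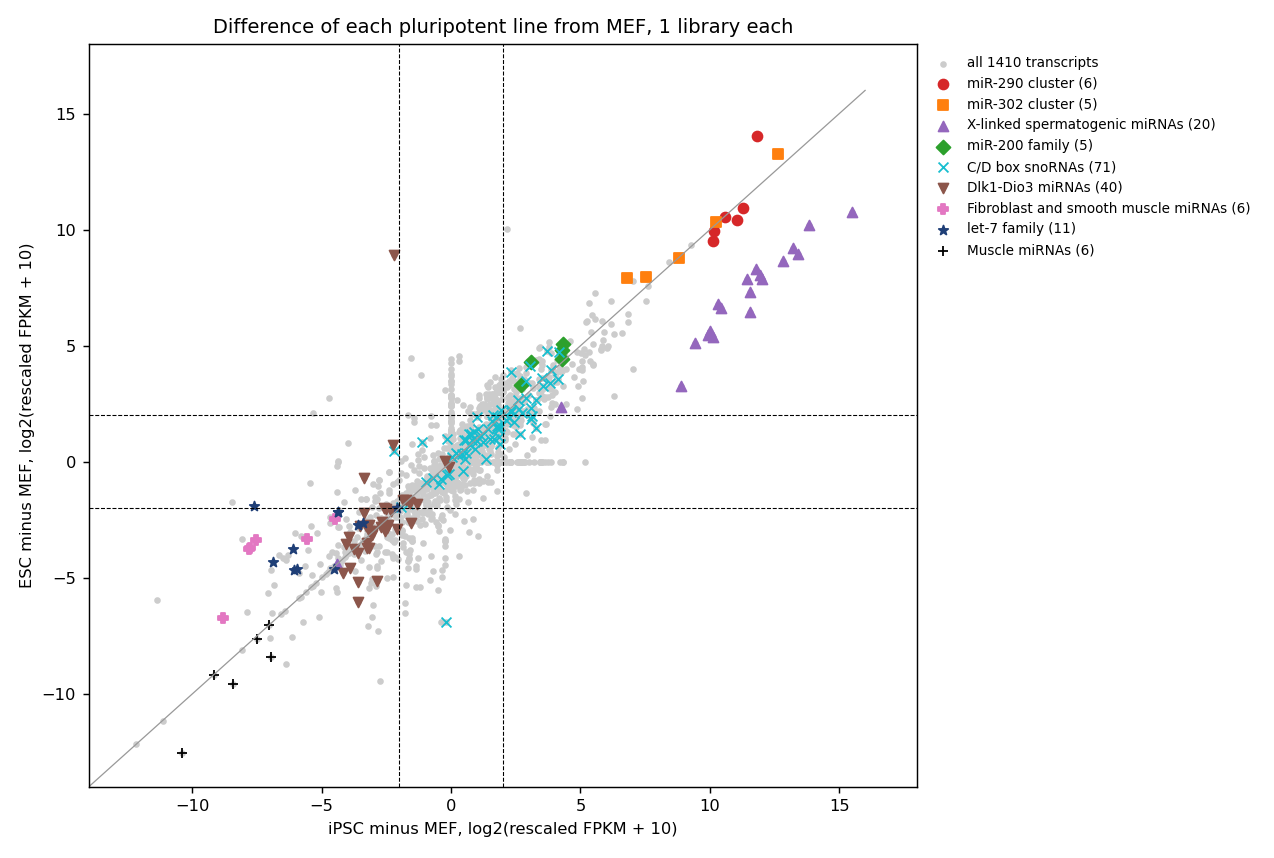
Each of the 1410 transcripts is a point, with the difference of iPSC from MEF on the x axis and of ESC from MEF on the y axis, both in log2(rescaled FPKM + 10), from 1 library per stage. Dashed lines mark 4-fold, and the miR-290 and miR-302 clusters lie near the diagonal on the far upper right, while the 19 higher X-linked genes lie below it and the 6 fibroblast genes with a value lie above it.

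The miR-290 cluster (chr7:3218626-3220724, plus strand, in no other gene annotated on that strand) was nearly absent from MEF and abundant in both lines. Its 6 genes with a value in each library took 0.00207% of the reads in MEF, 7.42% in iPSC and 6.29% in ESC. The seventh, Mir295, had the highest FPKM of the cluster in MEF and has no usable value in the lines. All 6 members with a value were at least 4-fold higher in both lines, with a median difference of 10.82 in iPSC and 10.48 in ESC. With the gene at 0 in MEF set to its bound these medians were 10.37 and 10.19. Over all 1410 transcripts the medians were 0.08 in iPSC and 0.00 in ESC.

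Mir292 had the highest FPKM of these 6 in each library, at 2780 FPKM (60 reads) in MEF, 8813650 in iPSC and 7109920 in ESC. That is 1143-fold higher in iPSC and 1000-fold higher in ESC. Mir293 stood at 1692 FPKM in MEF, 7237250 in iPSC and 6430410 in ESC, and Mir291a at 602, 4158000 and 3069750. Mir294, whose mature miR-294-3p is used as a reprogramming aid, stood at 389 FPKM in MEF, 1204470 in iPSC and 743003 in ESC. In these 4 genes the gap between the 2 lines was at most 0.58 on the log2 scale. Mir290 had 1 read in MEF and was 2383-fold higher in iPSC (95% interval 428 to 94124) and 1531-fold higher in ESC (275 to 60497). Mir291b was listed at 0 in MEF, 54055 FPKM in iPSC and 227511 in ESC, at least 126-fold and at least 575-fold higher. It alone of the 6 was over 4-fold apart between the lines, with a difference of iPSC from ESC of -2.19.

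The miR-302 cluster (chr3:127545228-127545807, plus strand, in no other gene annotated on that strand), the other source of the AAGUGCU seed, was called in all 5 members but at a far lower level. It took 0.0327% of the reads in iPSC and 0.0445% in ESC, and a single read of Mir302a was its whole content in MEF. Mir302d had the largest smaller difference of all 235 higher transcripts (12.62), at 0 FPKM in MEF, 92866 in iPSC and 132602 in ESC, at least 131-fold and at least 202-fold higher. Mir302b was listed at 0, 17754 and 17693 FPKM, and Mir302c at 0, 6632 and 5895. Mir302a stood at 75.5 FPKM in MEF, 41169 in iPSC and 51594 in ESC. Mir367, which has another seed, was the lowest at 0, 1635 and 3236 FPKM. The list's medians were 8.82 in iPSC and 8.76 in ESC, and 5.10 and 5.21 with the 4 genes at 0 in MEF set to their bounds.

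The 3 paralogous clusters with the miR-17 seed differed in how far the lines stood above MEF. In the X-linked miR-106a-363 cluster 5 of 6 genes were called, with medians of 7.57 in iPSC and 7.24 in ESC. Mir106a had 1 read in MEF (89.0 FPKM) and stood at 161192 FPKM in iPSC and 155952 in ESC, and Mir20b stood at 149 (3 reads), 148993 and 153449 FPKM. Mir18b was 187-fold higher in iPSC and 123-fold higher in ESC, and Mir92-2 10.6-fold and 7.75-fold. Mir92-2 has the same seed as the abundant Mir92-1 of the miR-17-92 cluster, and how reads were divided between these 2 genes was not tested. Mir363, which carries the miR-92 seed, stood at 2333 FPKM in MEF, 1278920 in iPSC and 1132780 in ESC, 198-fold and 190-fold higher. The exception was Mir19b-2, at 49518, 230612 and 346709 FPKM, 1.68-fold and 2.74-fold above MEF after rescaling. Its mature sequence is also made by Mir19b-1, so its reads may belong to either gene.

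In the miR-17-92 cluster on chromosome 14, which promotes proliferation and is active in most dividing cells, 0 of 6 members were called. Mir20a was the highest at 3.43-fold in iPSC and 5.14-fold in ESC, and Mir17 stood at 2.56-fold and 3.11-fold. Mir92-1, the cluster's most abundant member, held 3.65% of the reads in MEF, 6.75% in iPSC and 7.10% in ESC, and after rescaling differed from MEF by -0.45 and -0.32. The median over both lines was 1.00, and it was -0.14 when the libraries were scaled on snoRNAs and 2.41 on FPKM as deposited. In the miR-106b-25 cluster, inside the gene Mcm7 of the DNA replication licensing complex, Mir93 was called at 9.61-fold and 6.28-fold, while Mir25 and Mir106b lay 1.68-fold to 2.48-fold above MEF. That list's median of 1.03 became -0.10 with the snoRNA scaling.

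The miR-183 cluster, known from sensory cells and epithelia, held the miRNA with the highest FPKM and the most reads in both lines, among those with a usable value. Mir183 stood at 640015 FPKM in MEF, 37465500 in iPSC and 38329300 in ESC, which is 8.31% and 8.87% of the reads against 0.156% in MEF and 21.1-fold and 23.4-fold after rescaling. Mir96 stood at 1807, 236683 and 325230 FPKM, 47.2-fold and 70.4-fold higher. All 5 genes of the miR-200 family, which hold back the transition from epithelial to mesenchymal cells, were called, with medians of 4.29 in iPSC and 4.43 in ESC. Mir200a stood at 2011 FPKM in MEF, 111697 in iPSC and 172047 in ESC, and Mir429 at 2863, 155351 and 157745. Mir141, with the highest FPKM, stood at 42811, 1021060 and 2176040 FPKM, and Mir200c had the smallest difference at 6.61-fold and 10.0-fold. With scaling on snoRNAs 3 of the 5 were called. Each of the 5 was lower in iPSC than in ESC, with differences from -1.21 to -0.14. Mir205, an epithelial miRNA, was called as well at 6.39-fold and 11.2-fold, while Mir203 of skin was 8.16-fold below MEF in iPSC and 1.94-fold below it in ESC.

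The miRNAs of 2 neighbouring X-linked runs that are known from male germ cells were called together, and they were higher in iPSC than in ESC. The run from Mir743 to Mir470 (chrX:66776757-66814025, minus strand) had 13 of 13 members higher, and the Mir465 run (chrX:66825955-66839125, minus strand) 5 of 5. Mir470 had the highest FPKM of the list in both lines, at 419 FPKM (7 reads) in MEF, 4871230 in iPSC and 251903 in ESC, 4194-fold and 235-fold higher. Mir871 stood at 944, 3667170 and 237606 FPKM. Mir743b, with the largest iPSC difference of all transcripts (15.48), was listed at 0 in MEF and stood at 672488 FPKM in iPSC and 23478 in ESC, at least 1456-fold and at least 55.1-fold higher. Mir881 was listed at 0, 215226 and 15796 FPKM.

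Of the 20 genes on this list 19 were higher and 1 lower, the latter Mir547 with only 2 reads in MEF and 0 in each line. The list took 0.000566% of the reads in MEF, 3.18% in iPSC and 0.188% in ESC. Its median was 11.49 in iPSC and 7.05 in ESC, 8.36 and 4.12 with genes at 0 in MEF set to their bounds, and the median gap between the lines was 4.17. Over all 1410 transcripts iPSC was at least 4-fold above ESC in 133 (9.43%) and at least 4-fold below it in 82 (5.82%). The copies of Mir465 are nearly identical and share mature sequences, so the division of reads among them is uncertain.

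The Sfmbt2 group, repeat-derived families (miR-297, miR-466, miR-467 and miR-669) that lie mostly in introns of the imprinted gene Sfmbt2, lay above MEF in nearly all members, further in ESC than in iPSC. Of 72 tested members 71 lay above MEF in both lines, 21 of them at least 4-fold, with medians of 1.60 in iPSC and 2.91 in ESC (1.47 and 2.69 with genes at 0 in MEF set to their bounds). Its share of reads was 0.0157% in MEF, 0.103% in iPSC and 0.308% in ESC. The largest difference was that of Mir4660, at 0 FPKM in MEF, 1923 in iPSC and 2985 in ESC, and Mir467e was the most uneven at 4250, 14552 and 220186 FPKM. Many members differ by a few bases, so reads cannot be assigned to 1 of them with certainty. Scaled on miRNAs alone 58 of the 72 were called, scaled on snoRNAs 7, and against day 1 the count was 5.

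**Figure D2:**
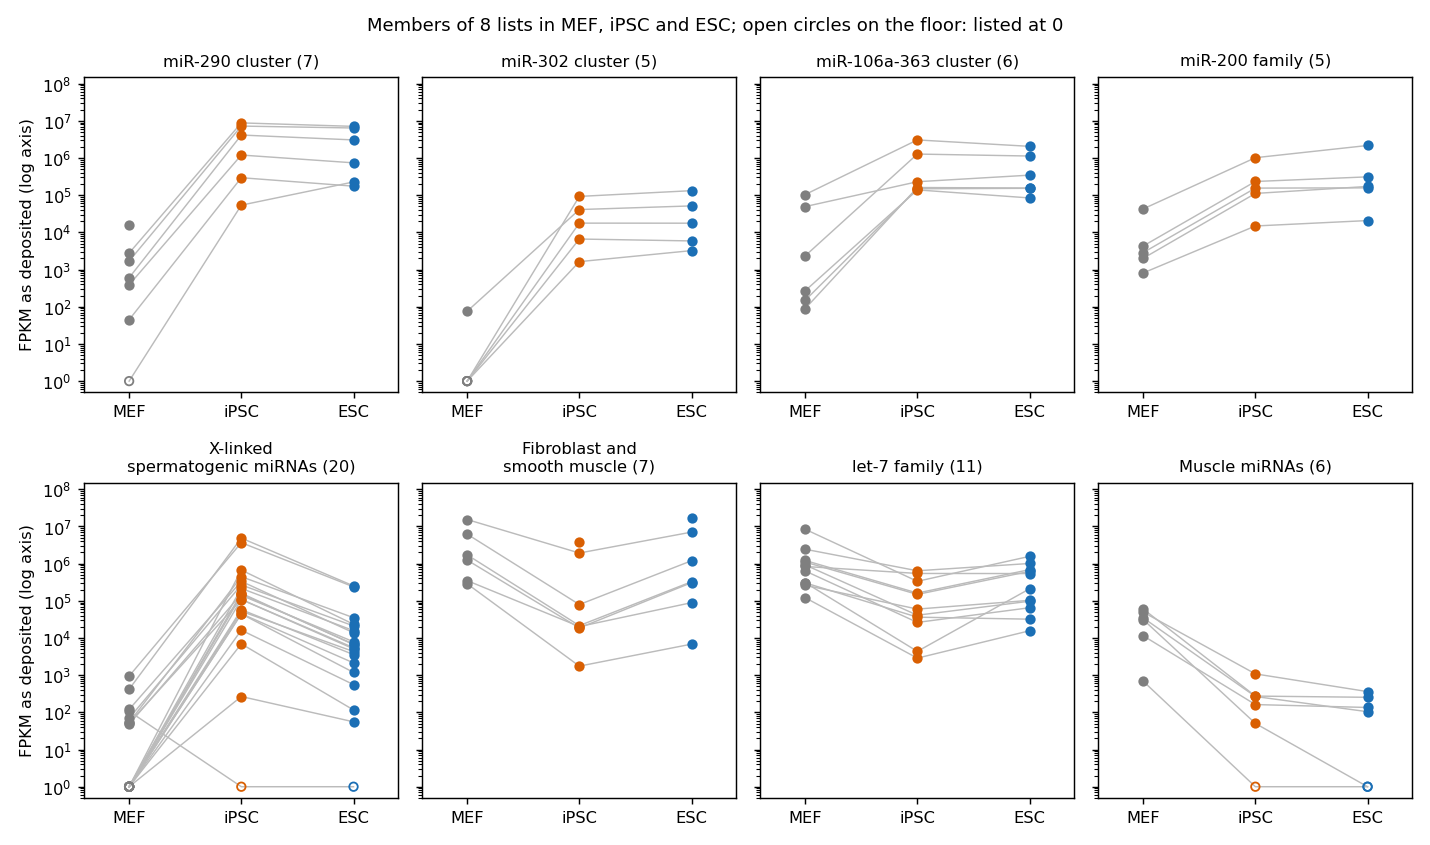
FPKM as deposited (log axis) in MEF, iPSC and ESC for the members of 8 lists, 1 library per column, with lines joining a transcript's values, open circles at the bottom for values listed at 0 and values treated as missing left out. The miR-290, miR-302, miR-106a-363 and miR-200 members are higher in both lines than in MEF, the X-linked members are higher in iPSC than in ESC, the fibroblast members are lower in iPSC than in ESC, and the let-7 members too except Mirlet7d and Mirlet7g, whose differences of iPSC from ESC after rescaling are 0.06 and -0.11.

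Outside these lists, a few single genes stood out, chosen after their values were seen. Mir211, in an intron of Trpm1 and known from pigment cells, stood at 3290 FPKM in MEF, 1180320 in iPSC and 135398 in ESC, 129-fold and 16.1-fold higher. Mir204, its relative with the same seed in Trpm3, was 21.6-fold lower in iPSC and 42.7-fold lower in ESC, at 219996, 28283 and 13166 FPKM. Mir150, a lymphocyte miRNA, was 31.0-fold and 16.1-fold higher. Mir708 in Tenm4 was 4.72-fold and 5.38-fold higher, and Mir1968 in Grtp1 had 2 reads in MEF, 537 in iPSC and 999 in ESC. Mir301b, of the miR-130 family, was 6.40-fold and 6.04-fold higher, while its relatives Mir301, Mir130a and Mir130b were not called.

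Among the lists that were lower, the fibroblast and smooth muscle miRNAs had all 6 members with a value called, but they were much lower in iPSC than in ESC. Their medians were -7.65 in iPSC and -3.55 in ESC, with a median gap between the lines of -3.14. On FPKM as deposited 4 were called, and against day 1, where Mir143 has a value, 3 of 7. Mir21, which had the highest FPKM of these 6, stood at 15382600 FPKM in MEF, 1929470 in iPSC and 7054880 in ESC, 22.1-fold and 5.57-fold lower. Mir199a-1 stood at 6216420, 79285 and 1197780 FPKM, and its copy Mir199a-2, whose mature sequences are the same, was 222-fold and 13.5-fold lower. Mir214, which neighbours Mir199a-2 in Dnm3os, had the largest difference at 287077 FPKM in MEF, 1751 in iPSC and 6844 in ESC, 455-fold and 107-fold lower. Mir145 on chromosome 18 was 47.7-fold and 10.0-fold lower. Without Mir143, which MEF lists at 0, the list took 12.8% of the reads in MEF, 0.997% in iPSC and 4.45% in ESC. With it, the list took 1.65% of the iPSC and 7.45% of the ESC reads. Both lines were plated on human fibroblasts, so a different number of such cells and a different amount of these miRNAs per cell cannot be told apart, here and in the groups that follow, and the part of the feeders in the gap between the lines was not tested.

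By list median, the let-7 genes and the miR-99, miR-100 and miR-125 genes had the same order, MEF above ESC above iPSC. Of the 11 let-7 genes 9 were called, with medians of -4.54 in iPSC and -2.70 in ESC. The count was 5 on FPKM as deposited and with scaling on miRNAs, 6 with quantile normalization and 11 with scaling on snoRNAs. The list took 7.94% of the reads in MEF, 0.872% in iPSC and 2.29% in ESC. Mirlet7i, the let-7 gene with the highest FPKM in MEF and ESC but not in iPSC, stood at 8414990 FPKM in MEF, 334458 in iPSC and 1569830 in ESC, 69.8-fold and 13.7-fold lower. Mirlet7d was lower to the same degree in both lines, 23.2-fold and 24.2-fold. The 2 members not called were Mirlet7g, at 838504, 544587 and 540971 FPKM with 4.27-fold and 3.96-fold, and Mirlet7b, at 308482, 4367 and 210276 FPKM. Mirlet7a-1 and Mirlet7a-2 make the same mature sequence, as do Mirlet7c-1 and Mirlet7c-2, so their reads cannot be told apart.

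The miR-99, miR-100 and miR-125 genes, which share transcripts with let-7 genes, had 5 of 6 members called. The count was 2 on FPKM as deposited and against day 1, and 3 with scaling on miRNAs and with quantile normalization. Mir125b-1 stood at 2131440 FPKM in MEF, 66356 in iPSC and 304605 in ESC, 89.1-fold and 17.9-fold lower. Mir99b, the fourth transcript of MEF by FPKM, stood at 14489300, 5516590 and 2538650, and together with its neighbour Mir125a it was lower in ESC than in iPSC, unlike the other 4. Mir100 was 353-fold below MEF in iPSC but 3.36-fold below it in ESC, at 791857, 6216 and 602545 FPKM, the widest gap between the lines on this list. Mir221 and Mir222, X-linked miRNAs that lower the cell cycle inhibitor p27, were far below MEF in iPSC alone and were not called. Mir221 was 20.7-fold lower in iPSC and 1.01-fold higher in ESC. Mir222 stood at 357376 FPKM in MEF, 46322 in iPSC and 811467 in ESC, 21.4-fold lower in iPSC and 1.13-fold lower in ESC.

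Muscle miRNAs and some blood miRNAs were at or near 0 reads in both lines. All 6 muscle genes were called, with medians of -7.96 in iPSC and -8.79 in ESC. Mir206 had 485 reads in MEF (31309 FPKM), 1 in iPSC and 0 in ESC, at least 634-fold lower in ESC. Mir133a-1 stood at 60284 FPKM in MEF, 274 in iPSC and 254 in ESC, and Mir1a-1 at 49796, 1084 and 362. In MEF the list summed to 0.0805% of the reads. Mir223, a myeloid miRNA, had the largest smaller difference of the 221 lower transcripts (-12.16), with 1273 reads in MEF and 0 in both lines, at least 1507-fold and at least 1664-fold lower. Mir511, in an intron of the macrophage receptor gene Mrc1, had 234 reads in MEF and 0 in both lines, at least 277-fold and at least 306-fold lower. Mir146, an inflammation miRNA, stood at 3408870, 78267 and 94453 FPKM, 121-fold and 92.3-fold lower. Of the 9 blood genes 5 were lower and 1, Mir150, was higher. Mir142, the marker of blood cells in general, was not called, at 232146 FPKM in MEF, 563551 in iPSC and 187969 in ESC. What part other cell types in the MEF culture had in these values was not tested.

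The Hox cluster miRNAs, which lie among the Hox genes that pattern the body axis, were lower in 3 of the 5 members with a value. Mir10b in Hoxd4 had the highest FPKM of the transcripts with a usable value in MEF, 38849200, and stood at 4202500 in iPSC and 4142650 in ESC, 25.6-fold and 24.0-fold lower. Its share of reads was 8.73% in MEF, 0.860% in iPSC and 0.885% in ESC. On FPKM as deposited and with scaling on miRNAs 2 of the 5 were called. Mir615 in Hoxc5 was 34.1-fold and 103-fold lower and Mir196b 25.3-fold and 5.24-fold lower. Mir196a-1 and Mir196a-2, which make the same mature sequence, were within 2.32-fold of MEF in both lines.

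The imprinted Dlk1-Dio3 region on chromosome 12, a large group of miRNAs expressed from the maternal chromosome, was lower in most members. Of 40 genes with a value 28 were called lower and 0 higher, 37 lay below MEF in both lines, and the medians were -2.93 in iPSC and -2.79 in ESC. Mir541, the second transcript of MEF by FPKM, stood at 15936300 FPKM in MEF, 4915720 in iPSC and 6100090 in ESC, 8.99-fold and 6.68-fold lower. Mir410 stood at 3083760, 1315320 and 1131100 FPKM, and Mir3072 had the largest smaller difference at 18.4-fold and 28.0-fold. Mir758 was among those at the MEF level, 1.05-fold and 1.18-fold lower. The 40 genes took 11.1% of the reads in MEF, 3.36% in iPSC and 4.09% in ESC. With the 5 genes that MEF lists at 0, the lines' shares were 5.65% and 6.72%. The count depends on the reference and the scaling: 15 were lower with scaling on miRNAs, 7 on FPKM as deposited, 35 with scaling on snoRNAs and 2 against day 1, with a negative median in each of these.

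Of other imprinted miRNAs, those of the growth genes Igf2 and H19 were lower. Mir483 in Igf2 stood at 120719 FPKM in MEF, 3982 in iPSC and 715 in ESC, 84.1-fold and 432-fold lower, and Mir675 in H19 at 11519, 236 and 141. Mir298 at the Gnas locus lay above MEF by 0.83 and 0.21 on the log2 scale, and Mir296 of the same locus differed by -0.97 and -1.82. Mir335, in Mest, was 3.01-fold and 6.25-fold lower.

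In the miR-322 cluster on the X chromosome, 2 of 7 genes were called lower, a share not far from the 22.2% of all miRNA genes. Mir351 stood at 5352610 FPKM in MEF, 1841990 in iPSC and 188758 in ESC, 8.06-fold and 72.5-fold lower. On FPKM as deposited and against day 1 none of the 7 was called. Mir351, which carries the miR-125 seed, was the only 1 of the 7 with over 1% of the MEF reads (3.57%). All 7 were lower in ESC than in iPSC, by 1.06 to 3.17. Among the p53-linked miR-34 and miR-449 genes 3 of 5 were lower (1 on FPKM as deposited), Mir34b by 5.54-fold and 32.6-fold, while Mir34a stood 1.29-fold above MEF in iPSC and 1.02-fold below it in ESC. In the miR-29 family, which lowers collagens, 3 of 4 were lower, and Mir29a stood at 151797, 20724 and 93270 FPKM. With scaling on miRNAs or on FPKM as deposited none of the 4 passed 4-fold. Of the miR-23, miR-27 and miR-24 clusters, the chromosome 13 genes Mir23b and Mir27b were called, 13.4-fold and 15.7-fold and 4.86-fold and 4.54-fold lower, while the chromosome 8 genes were not. Of these 5 genes 1 was called with scaling on miRNAs and 5 with scaling on snoRNAs. Of 12 neural genes 1 was higher and 3 lower, beside 17.5% higher and 22.2% lower of all miRNA genes, so the lower share is near that of all. Their median of -0.33 over both lines became 0.59 with scaling on miRNAs and 1.05 on FPKM as deposited. The brain miRNAs Mir9-2 and Mir9-3 were 19.7-fold and 20.6-fold lower in iPSC and 21.9-fold and 17.7-fold lower in ESC, while Mir124a-2 was 5.39-fold and 4.55-fold higher from 20 reads in MEF. Mir124a-1 and Mir124a-3, copies of the same mature miRNA, were not called, at 2.85-fold and 2.70-fold and at 3.30-fold and 2.91-fold. Both genes of miR-218, in the axon guidance genes Slit2 and Slit3, were lower by 13.8-fold to 16.5-fold.

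The miR-181 family split by locus. Mir181a-1, Mir181a-2, Mir181b-1 and Mir181b-2 were all called lower, Mir181a-2 from 5818370 FPKM in MEF to 791966 in iPSC and 2124360 in ESC. On chromosome 8, in the germ cell gene Nanos3, Mir181c stood at 386661, 4309320 and 4114990 FPKM, 4.02-fold and 4.16-fold higher, and its neighbour Mir181d was 3.40-fold and 3.20-fold higher. As printed above, their seed is the same. With scaling on snoRNAs 0 of the 6 were higher and 4 lower, and with scaling on miRNAs 2 were higher and 2 lower.

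Some abundant families had few calls or none. The 6 miR-30 genes lay below MEF in both lines with medians of -0.57 in iPSC and -0.76 in ESC, and Mir30e, at 1274420, 3476500 and 3176030 FPKM, differed by -0.02 and -0.04. The median of the mean of both lines, -0.67, became 0.27 with scaling on miRNAs and 0.75 on FPKM as deposited. The 6 genes of miR-15, miR-16, miR-195 and miR-497 had medians of 0.06 and 0.31, and Mir16-1 stood at 952635, 2775840 and 2637130 FPKM. Their median over both lines, 0.13, became -1.01 with scaling on snoRNAs. The 3 miR-26 genes, in introns of the Ctdsp phosphatase genes, held 7.22% of the reads in MEF, 5.99% in iPSC and 6.87% in ESC and lay 2.35-fold to 3.11-fold below MEF after rescaling. Mir148a was the MEF gene with the most reads (8.75%) and held 5.56% in iPSC and 6.94% in ESC, while its relative Mir152 was 36.1-fold and 8.27-fold lower. Mir126, the endothelial marker, was 1.63-fold and 2.01-fold above MEF.

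**Figure D3:**
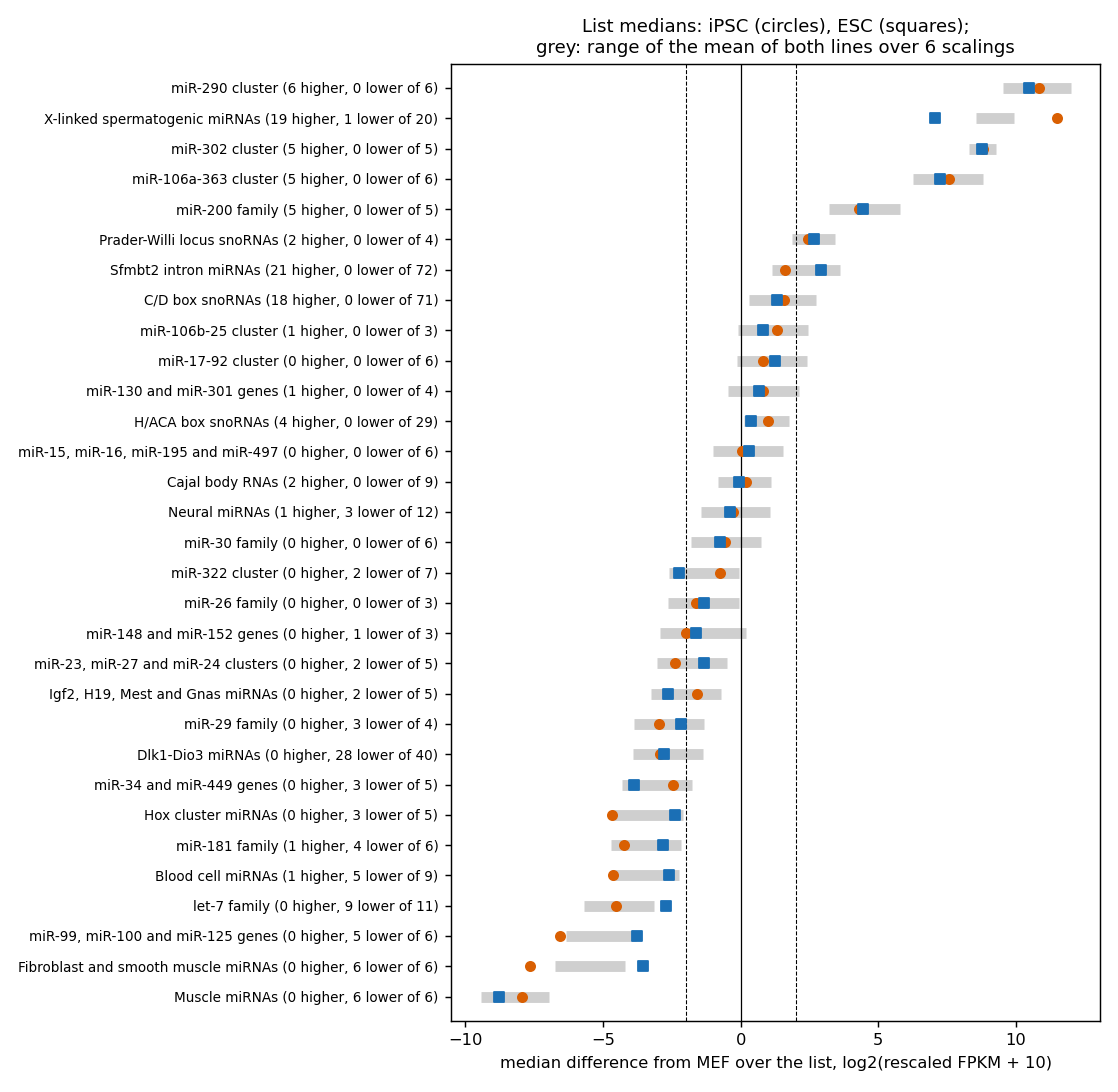
Median difference from MEF for each list with at least 3 members with a value, in iPSC (circles) and ESC (squares) in log2(rescaled FPKM + 10), with grey bars for the range of the median of both lines' mean over 6 scalings and counts of called members beside each name. The lists at both ends keep their side of 0 over the scalings, and those between the miR-106b-25 and miR-148 lists include 8 whose grey bar crosses 0.

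By share of reads the makeup of the 3 libraries differed as follows. The 10 genes with the most reads took 54.5% of MEF, 42.1% of iPSC and 45.0% of ESC. Mir10b, Mir21, Mir541, Mir99b and Mirlet7i were among the 10 of MEF. Mir183, Mir92-1, Mir148a, both Mir26a genes, Mir292, Mir541 and Gm24083, an annotated miRNA gene on chromosome 9, were among the 10 of each line. Gm24083 took 2.17% of MEF, 6.70% of iPSC and 3.97% of ESC and was not called. In ESC the 10 also held Mir21 (3.59%) and Mir143 (3.00%), which in iPSC took 0.940% and 0.652%.

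**Figure D4:**
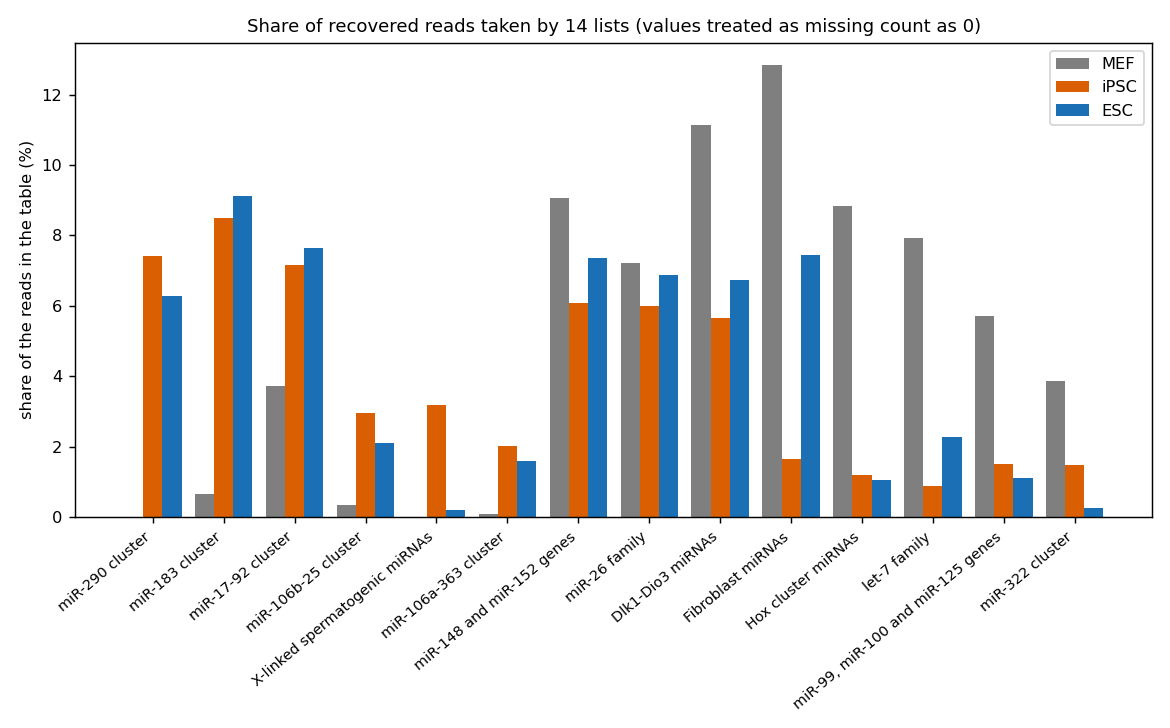
Bars give the share of recovered reads (%) taken by 14 lists in MEF, iPSC and ESC, 1 library each, with values treated as missing counted as 0 (such as Mir143 and Mir127 in MEF and Mir182 and Mir295 in the lines). The miR-290 and X-linked bars are near 0 in MEF, and the fibroblast bar is 12.8% in MEF, 1.65% in iPSC and 7.45% in ESC.

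Values listed at 0 for transcripts that are abundant in the nearest library were treated as missing, and these transcripts have no difference here. In MEF they were Mir143, Mir10a and 5 neighbouring Dlk1-Dio3 genes, Mir127, Mir136, Mir431, Mir433 and Mir434. Mir143 was listed at 0 in MEF, 40549900 FPKM on day 1, 3927200 in iPSC and 17316200 in ESC. After rescaling, day 1 stood 14.9 times above iPSC and 3.12 times above ESC. Mir10a stood at 9493720 FPKM on day 1, 310326 in iPSC and 127549 in ESC. For Mir127 the day 1 value was 20991000, against 7998180 in iPSC and 9089220 in ESC, and the 5 Dlk1-Dio3 genes were also listed at 0 together on day 4. In both lines Mir182 and Mir295 were listed at 0, although their cluster neighbours Mir183 and Mir292 were among the most abundant transcripts. Mir182 had 1669730 FPKM in MEF, reached 37508500 on day 5 and was listed at 0 from day 6 on. Mir295 had 15865 FPKM in MEF and reached 31201600 by day 8. With these zeros kept as deposited, the counts were within 1.5 times of those given.

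The snoRNAs as a class lay above MEF, with medians of 0.99 in iPSC and 0.99 in ESC over 429 genes against 0.00 and -0.07 over 886 miRNA genes. At least 4-fold, 73 of the 429 were higher, a share near the 16.7% of all transcripts, and 11 (2.56%) lower against 15.7%. Of the higher ones 54 had at least 20 reads in each line. Of 71 C/D box snoRNAs on the list, which guide 2'-O-methylation of ribosomal RNA, 18 were higher and 0 lower with medians of 1.59 and 1.30. Snord70 and Snord11 in introns of Nop58, a core protein of the C/D particles themselves, stood at 2574, 102901 and 102660 FPKM and at 2160, 105523 and 66256 FPKM. All 3 snoRNAs at Gnl3 (chr14:31014287-31016281, minus strand), which encodes the nucleolar protein nucleostemin, were called, among them Snord69 at 44885 FPKM in MEF, 1451620 in iPSC and 1103660 in ESC. Snora75, an H/ACA box snoRNA at the nucleolin gene Ncl, had 1 read in MEF and stood at 811 and 575 FPKM in the lines. Gm23212, a snoRNA at the growth arrest gene Gas5 and the third transcript of iPSC by FPKM, stood at 368825 FPKM in MEF, 12356200 in iPSC and 8494940 in ESC, 12.1-fold and 9.01-fold higher, while 6 of the 9 snoRNAs there were not called. Of 77 snoRNAs at Snhg14, the long Prader-Willi transcript, 0 were higher and 5 lower, shares under the 16.7% and 15.7% of all transcripts. Their medians were 0 in iPSC and 1.31 in ESC, and runs of 46 and 17 of these genes had the same medians. From a value of 0, a difference of 1.31 is about what a single read gives in ESC, so this median lies at the floor. Gm25744, which is not among these 77, stood at 127604, 7077470 and 7920650 FPKM, differences of 4.32 and 4.60 on the log2 scale.

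The guides of pseudouridine, the H/ACA box snoRNAs, had medians of 1.01 and 0.37 (0.72 and 0.00 with bounds) and 4 of 29 higher, a share under the 16.7% of all transcripts. Of the Cajal body RNAs, which guide marks on spliceosomal RNA, 2 of 9 were higher, a share near that of all transcripts, and 0 against day 1. Snord21 was listed at 632 FPKM in MEF, 1529 in iPSC and 0.0384 in ESC. The ESC value is far below a single read, which at 80 nt corresponded to 32.4 FPKM, so it gives no level for ESC. Of the imprinted Prader-Willi locus, Snord107 was called from 1 read in MEF to 275 in iPSC and 258 in ESC, and Snord64 was 11.2-fold and 16.3-fold higher, but against day 1 0 of the 4 genes of that list were called. The C/D list follows the library factor. With scaling on miRNAs 35 of its 71 members were higher, with scaling on snoRNAs 8 were higher and 2 lower, and against day 1 4 were higher with a median of 0.23.

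Of 51 groups of at least 3 transcripts within 10 kb on 1 strand, 7 had every member called higher, 3 every member lower and 1 had calls in both directions, and in 36 the calls went 1 way. Beside the clusters named above, all 5 miRNA genes in introns of the chloride channel gene Clcn5 (chrX:7237683-7248497, minus strand) were lower. Mir532, with the highest FPKM of them, stood at 208278 FPKM in MEF, 42680 in iPSC and 49730 in ESC, and Mir188 had the smallest difference at 8.53-fold and 6.04-fold. Within the serotonin receptor gene Htr2c, Mir1298 stood at 8529, 85.4 and 232 FPKM and Mir448 at 1414, 14.2 and 59.1. Mir873 and Mir876, neighbours in Lingo2, were lower by 34.0-fold to 129-fold. By chromosome, the share of miRNA genes that were lower was highest on chromosome 13 (12 of 22) and chromosome 12 (36 of 73), the latter with the Dlk1-Dio3 region, against 22.2% of all miRNA genes. The share that was higher was largest on the X chromosome (25 of 72, 34.7%, against 17.5% overall), where 21 of 72 were lower. Of these 25 higher genes, 13 were in the Mir743 to Mir470 run, 5 in the Mir465 run and 5 in the miR-106a-363 cluster.

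**Figure D5:**
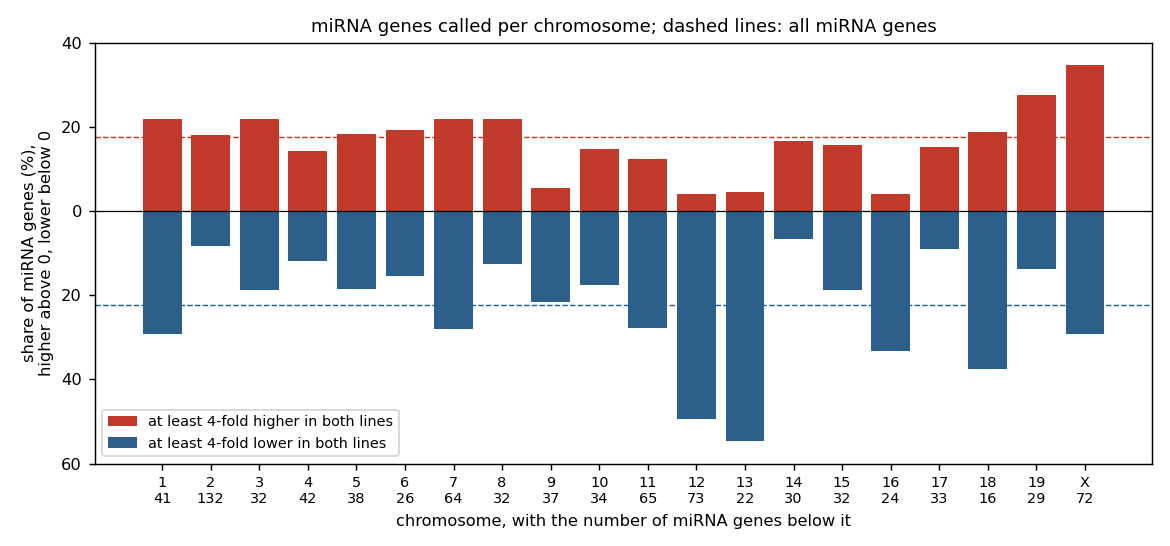
Bars give the share (%) of miRNA genes on each chromosome at least 4-fold higher (above 0) or lower (below 0) in both lines than in MEF, with the number of genes under each name and dashed lines for all 886 miRNA genes (17.5% higher, 22.2% lower). The X chromosome has the tallest bar above 0, at 34.7%, and chromosomes 12 and 13 the longest bars below 0.

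Calls were also counted by seed. A mature sequence was found for 663 of the 895 tested miRNA genes, and 655 of these had a value. The letters AAGUGC within bases 1 to 8 of either arm, the core of the sequences printed first, were in 10 of 109 higher genes, in 0 of 176 lower genes and in 4 of 370 others. The 10 were Mir290, Mir291a, Mir291b, Mir294, Mir302b, Mir302c, Mir302d, Mir106a, Mir20b and Mir93. The 4 were Mir17, Mir20a, Mir106b and Mir350. Only arms with a matched sequence were searched, so these are minimum counts. Mir292 and Mir302a, both called higher, are not among the 10, and an arm left unmatched can hold the letters. Of 38 seeds held by at least 3 genes, 6 had all genes higher and 2 all genes lower. The latter were CAGUAGU of miR-199 with 3 genes and CCCUGAG of miR-125 and miR-351 with 4. The genes with the let-7 seed GAGGUAG were lower in 7 of 9. Genes of 1 seed often lie in 1 cluster and share reads, so these counts describe the families and add no independent evidence.

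In 3 transcripts the lines lay at least 4-fold from MEF in opposite directions. Mir654, in the Dlk1-Dio3 region, had 3 reads in MEF, 2 in iPSC and 5857 in ESC (164921 FPKM) and thus stood apart from the 28 called members of that region. Mir1948 had 5, 0 and 85 reads, and mmu-mir-7688 had 1, 0 and 27. A 0 allows up to 3 reads, so whether mmu-mir-7688 was lower in iPSC than in MEF is not known.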

How the data were processed

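Small RNA libraries (1 µg total RNA, TruSeq small RNA kit, gel size selection, 12 PCR cycles, per the labels' protocols) were given as 1 table of FPKM values for 3859 genes, deposited by the authors. CASAVA 1.8.2, Bowtie2 2, Cufflinks 2.2.1 and the mm10 genome are named, with no roles, in the submitters' processing notes. How strand and reads with several matches were handled is not given in the sources used here. FPKM divides by gene length, and these genes are short, so genes ranked by the authors' FPKM values can rank otherwise by reads, and each ranking names its scale. Each group holds 1 library, so no test was run.

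Genes with a mean of at least 10 FPKM over the 11 libraries were kept (1419). Libraries were rescaled by median ratios over 783 genes, and differences were taken as log2(value + 10), computed here from the deposited FPKM and not a log2 scale of the authors. This scale understates the change between low values above 0. Against a 0 it can give a larger difference than the bound from 3 reads. The miR-302 list, with 4 genes at 0 in MEF, had an iPSC median of 8.82, and 5.10 at the bounds. A gene was called when both lines differed from MEF by at least 4-fold in the same direction. A 0 was treated as missing where the nearest library held at least 500000 FPKM, or at least 5000 FPKM within 10 kb of such a gene. Relative depth was recovered from the steps between low values. Of 2235 held-out values 89.4% came out whole within 0.1 read, where 20% would by chance. Names and hosts are from GENCODE M21 (3717 of 3859 identifiers found), and sequences from RefSeq. The named genes were the 12 highest and 12 lowest by the smaller difference, the 5 most abundant per library, each list's extremes and markers, all missing zeros and the opposite calls; others were chosen after their values were seen. The members and lists were chosen with earlier results of these data known. The method was tested on simulated data. The alternatives tried were 2 pseudocounts, 2 filters, 5 scalings, 2 rules for zeros, day 1 as the reference, each line alone and 2 fold thresholds. Python 3.11.15, numpy 2.4.6, pandas 2.3.3, scipy 1.17.1 and matplotlib 3.10.9 were used.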

Additional observations from a re-analysis of the deposited data

Results flagged for a closer look

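In 3 transcripts iPSC and ESC lay on opposite sides of MEF, each by at least 4-fold, and the difference between the lines was not tested, with 1 library of each. Mir654 differed from MEF by -2.19 in iPSC and by 8.90 in ESC on the log2 scale, on 3, 2 and 5857 reads in MEF, iPSC and ESC, so that only the ESC value rests on more than a few reads. Mir1948 differed by -5.33 in iPSC and 2.09 in ESC, on 5, 0 and 85 reads. mmu-mir-7688 differed by -4.70 in iPSC and 2.73 in ESC, on 1, 0 and 27 reads. A 0 allows up to 3 reads, so the iPSC side of mmu-mir-7688 is not resolved from MEF, and that of Mir1948 rests on 5 MEF reads.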

How the results depend on the processing

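No called transcript changed sign under any of the 6 scalings, which the 4-fold threshold nearly fixed in advance. The counts depended on the scaling and the reference. On FPKM as deposited 414 transcripts were higher and 108 lower, with scaling on miRNAs 349 and 138, and with scaling on snoRNAs 154 and 357, against 235 and 221. The share of higher among all calls was then 79.3%, 71.7% and 30.1%, against 51.5%. A pseudocount of 100 gave 127 higher. With day 1 in place of MEF 118 were higher and 137 lower, of which 88 and 94 were also called against MEF. At 2-fold the counts were 415 and 349, and at 16-fold 80 and 64. With ESC left out 316 transcripts were higher and 266 lower in iPSC, and with iPSC left out 336 and 306 in ESC. No paired analysis was possible because each group holds 1 library, and MEF, the only reference library, was replaced by day 1 and not left out. Depth limits the low genes: 145 of the 235 higher transcripts had at most 3 reads in MEF, and 65 of the 221 lower ones at most 3 in each line.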
